A study of Mus with 4 samples.

Results

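Genes switched on by the tumour suppressor p53 were examined in the cochlea, because a viral vector can raise a DNA damage response in the cells it enters. The list held 10 genes, Ccng1, Cdkn1a, Mdm2, Bax, Bbc3, Phlda3, Eda2r, Trp53inp1, Sesn2 and Btg2, chosen by symbol, and 9 of them were among the 21230 genes of the expression table. Trp53inp1, which codes for a p53-induced nuclear protein, was not analysed here. The tissue was whole mouse cochlea, measured by RNA sequencing in 2 libraries labelled RESTARTv3 and 2 labelled untreated. All 4 libraries came from mice with Otof c. 1315 C > T, the nonsense change p.R439X in the gene of otoferlin, the calcium sensor that inner hair cells need to release transmitter. RESTARTv3 is an RNA base editing tool in which a guide snoRNA and a supplied isoform of the protein DKC1 direct pseudouridine to the premature stop codon. The tool also supplies a near-cognate tRNA to read that codon. Per the study's methods it was packed in AAVie, a viral vector described there as specific for inner hair cells, and injected through the posterior semicircular canal about a month after birth. The interval between injection and the collection of these cochleae, and their sex, are not given in the sources used here, and the mutant line was made, per the methods, with C57BL/6J donor females. The labels name no injected control library, so injection, vector and RESTARTv3 cannot be told apart, and the 2 libraries of a group are taken as the biological replicates that the study's methods describe, although the labels do not tie them to animals.

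The p53 protein is kept low by Mdm2, a ubiquitin ligase that p53 itself induces, and by the related Mdm4. DNA breaks, stalled replication and ribosome stress loosen that hold, and p53 then binds the promoters of its targets, which stop the cell cycle, start repair or open the mitochondrial route to apoptosis. In the inner ear the pathway is best known from hair cells exposed to cisplatin or to aminoglycosides, in which p53 and Bax take part in cell death.

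The values were RPKM, that is reads scaled to library size and to gene length, in which the length is the whole span of a gene, introns included, so that genes with long introns are listed low. Library totals, recovered from the values, lay between 39650172 and 71144247 reads. The listed genes held 60.6% and 29.97% of the total in RESTARTv3 replicates 1 and 2, against 55.0% and 63.3% in untreated libraries A and B. The header gives both untreated columns 1 name, so A and B are letters without an order. Library composition was therefore also put on a common scale by median-of-ratios scaling, with factors of 1.29 and 0.634 for RESTARTv3 replicates 1 and 2 and 0.927 and 1.32 for untreated libraries A and B. After scaling, untreated library A was the highest or the lowest of the 4 libraries in 83.7% of all genes. The defining markers of the cochlea were present, with 9 of 10 listed and a summed level of 299 and 128 RPKM in RESTARTv3 replicates 1 and 2, against 279 and 343 RPKM in the untreated libraries A and B. As cochleae were bulk tissue, fewer cells of a type and less RNA per cell cannot be told apart in any value below.

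None of the p53 target genes passed the test between RESTARTv3 and untreated cochleae. The test was limma on log2(RPKM + 0.5) over the 5076 genes that averaged 1 RPKM or more across the libraries, with Benjamini-Hochberg adjustment at 0.05. It called 0 of the 6 members tested and 0% of all genes tested. At an unadjusted p under 0.05 it held 0 of the 6 members and 72 of all genes (1.42%). Bbc3, Eda2r and Sesn2 lay under the minimum and are given from recovered whole reads with limma voom, an alternative that took in 18499 genes, called 0 of 9 members and 0% of all genes, and held 0 members and 2.15% of all genes at an unadjusted p under 0.05. The 6 members had a median log2 change of -0.39, against -0.41 over all genes tested, and 3 of the 6 lay above that median, as 50% of all genes do by definition. On recovered reads 4 of 9 members lay above the median of all genes, and the members' median relative to it was -0.25 on the log2 scale. Without untreated library A these were 6 of 9 and 0.068.

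On the deposited scale 0 of 9 members had both RESTARTv3 libraries above both untreated libraries, where 2.24% of all genes did. Phlda3 and Sesn2 had both RESTARTv3 libraries below both untreated libraries, that is 2 of 9 members, where 25.2% of all genes did. After median-of-ratios scaling the counts were 1 of 9 above, Ccng1, where 16.2% of all genes were above, and 0 of 9 below, where 21.5% of all genes were below. The members' shares were thus near those of the whole table or under them.

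**Figure D1:**
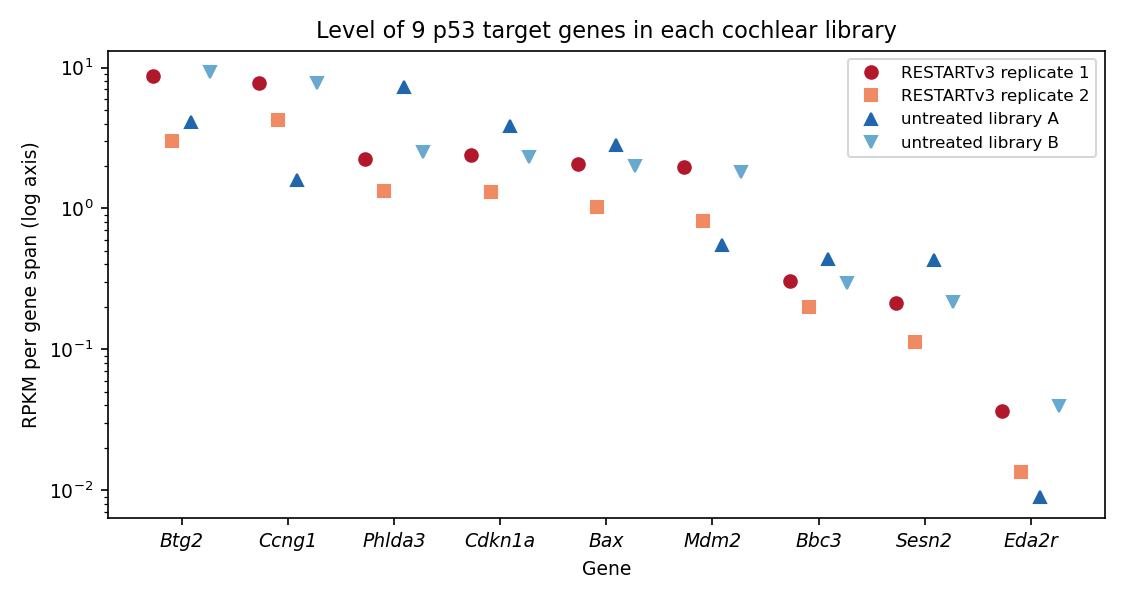
RPKM per gene span (log axis) of the 9 listed p53 target genes in each of the 4 cochlear libraries, with RESTARTv3 replicates 1 and 2 in red tones and untreated libraries A and B in blue tones. Ccng1, Mdm2 and Eda2r were lowest in untreated library A, Phlda3, Cdkn1a, Bax, Bbc3 and Sesn2 were highest there, and RESTARTv3 replicate 2 was lowest for 6 of the 9 genes.

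The feedback arm of the pathway was read from Mdm2 and Ccng1. Mdm2, the ligase that marks p53 for destruction, had 1.97 and 0.812 RPKM in RESTARTv3 replicates 1 and 2, against 0.547 and 1.82 RPKM in the untreated libraries A and B. These were 3072 and 1085 reads in the RESTARTv3 libraries, against 475 and 2259 reads in the untreated libraries. On the deposited scale the groups overlapped, with 1 high and 1 low library in each. After scaling, Mdm2 had 1.53 and 1.28 in RESTARTv3 replicates 1 and 2, against 0.590 and 1.38 in untreated libraries A and B. The fitted log2 change of Mdm2 was 0.21 (SE 0.68, limma adjusted p = 0.998), and 0.62 relative to the median of all genes tested. Ccng1 codes for cyclin G1, a p53-induced partner of a phosphatase that acts on Mdm2. It had 7.73 and 4.22 RPKM in RESTARTv3 replicates 1 and 2, against 1.59 and 7.82 RPKM in the untreated libraries A and B. The 2 untreated libraries lay further apart than the 2 RESTARTv3 libraries, and the highest and the lowest value were both untreated. The group means were 5.97 ± 2.48 RPKM in RESTARTv3 and 4.71 ± 4.40 RPKM in untreated cochleae (SD, n = 2 each), and the fitted log2 change was 0.58 (SE 0.81, limma adjusted p = 0.998). After scaling, Ccng1 had 5.98 and 6.66 in RESTARTv3 replicates 1 and 2, against 1.72 and 5.94 in untreated libraries A and B, so that 3 libraries lay within 1.12-fold of each other and untreated library A stood alone below them. Ccng1 had 421 reads in untreated library A and 2957 in B, a log2 ratio of -2.81, and the table holds no gene whose reads differed by more than 3 on the log2 scale within a group.

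Cell cycle arrest was read from Cdkn1a and Btg2. Cdkn1a codes for p21, the inhibitor of cyclin-dependent kinases and the best-known p53 target. It had 2.40 and 1.30 RPKM in RESTARTv3 replicates 1 and 2, against 3.85 and 2.32 RPKM in the untreated libraries A and B. RESTARTv3 replicate 1 lay just above untreated library B, so the groups overlapped. The means were 1.85 ± 0.777 RPKM in RESTARTv3 and 3.08 ± 1.08 RPKM in untreated cochleae (SD, n = 2 each). The log2 change was -0.61 (SE 0.76, limma adjusted p = 0.998), and -0.20 relative to the median of all genes tested. After scaling, Cdkn1a had 1.86 and 2.06 in RESTARTv3 replicates 1 and 2, against 4.15 and 1.76 in untreated libraries A and B. Btg2, an antiproliferative protein that recruits the deadenylase complex to mRNA and is also an immediate early gene, had 8.73 and 3.03 RPKM in RESTARTv3 replicates 1 and 2, against 4.10 and 9.30 RPKM in the untreated libraries A and B. Each group held 1 high and 1 low library. Its log2 change was -0.23 (SE 0.83, limma adjusted p = 0.998), and it turned to 0.020 after median-of-ratios scaling and to 0.029 on recovered reads. Of the 9 members Btg2 differed most between RESTARTv3 replicates 1 and 2 after scaling, with 6.75 and 4.79, a log2 ratio of 0.50.

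The apoptosis arm was read from Bax, Bbc3, Eda2r and Phlda3. Bax, which perforates the outer mitochondrial membrane, had 2.06 and 1.02 RPKM in RESTARTv3 replicates 1 and 2, against 2.82 and 1.99 RPKM in the untreated libraries A and B. The groups overlapped by a narrow margin, as RESTARTv3 replicate 1 lay just above untreated library B. Its log2 change was -0.55 (SE 0.73, limma adjusted p = 0.998), and -0.13 relative to the median of all genes tested. After scaling, Bax had 1.59 and 1.60 in RESTARTv3 replicates 1 and 2, against 3.04 and 1.51 in untreated libraries A and B. Bbc3, or Puma, a BH3-only protein that frees Bax from its inhibitors, was listed low, at 0.305 and 0.198 RPKM in RESTARTv3 replicates 1 and 2, against 0.439 and 0.298 RPKM in the untreated libraries A and B. These were 213 and 119 reads in the RESTARTv3 libraries, against 171 and 166 reads in the untreated libraries. Here too RESTARTv3 replicate 1 fell between the untreated libraries, and the log2 change on recovered reads was -0.25 (SE 0.54, limma voom adjusted p = 0.860).

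Phlda3, a pleckstrin homology domain protein that restrains Akt, had the largest change among the 6 members tested on RPKM, but relative to the median of all genes Ccng1 was larger, at 0.99 against -0.69 for Phlda3. Phlda3 had 2.25 and 1.33 RPKM in RESTARTv3 replicates 1 and 2, against 7.24 and 2.53 RPKM in the untreated libraries A and B. Both RESTARTv3 libraries lay below both untreated libraries, but RESTARTv3 replicate 1 and untreated library B were close, while untreated library A was far above the rest. The means were 1.79 ± 0.652 RPKM in RESTARTv3 and 4.88 ± 3.33 RPKM in untreated cochleae (SD, n = 2 each). The log2 change was -1.11 (SE 0.77, limma adjusted p = 0.998), and on recovered reads it was -0.97, with a 95% interval of -2.71 to 0.78. After scaling the order of the groups was lost, with 1.74 and 2.10 in RESTARTv3 replicates 1 and 2, against 7.80 and 1.92 in untreated libraries A and B.

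Eda2r, the receptor for an ectodysplasin isoform of the tumour necrosis factor family, was close to the floor. It had 116 and 37 reads in RESTARTv3 replicates 1 and 2, against 16 and 101 in the untreated ones, A and B, over a span of 44851 bases. The 16 reads of untreated library A have an exact Poisson interval of 9.15 to 26.0 at 95%, and such intervals cover counting error only. The log2 change on recovered reads was 0.51 (SE 0.64, limma voom adjusted p = 0.779). Eda2r overlaps the gene model Gm18111 in the GRCm38.p6 annotation, and as the strand setting of the counting is not given in the sources used here, its reads may include those of that model.

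Stress metabolism was read from Sesn2, sestrin 2, which restrains mTORC1 and is induced by p53 and by the stress factor Atf4. It had 0.213 and 0.113 RPKM in RESTARTv3 replicates 1 and 2, against 0.429 and 0.218 RPKM in the untreated libraries A and B. Both RESTARTv3 libraries lay below both untreated libraries, although RESTARTv3 replicate 1 and untreated library B differed only in the third digit. On recovered reads the log2 change was -0.65 (SE 0.60, limma voom adjusted p = 0.766). After scaling, RESTARTv3 replicates 1 and 2 had 0.165 and 0.179, against 0.462 and 0.165 in untreated libraries A and B.

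The 9 genes were sorted by what untreated library A did. After scaling it was the highest library for Bax, Bbc3, Cdkn1a, Sesn2 and Phlda3, where it was highest in 41.9% of all genes. It was the lowest for Ccng1, Eda2r, Mdm2 and Btg2, where it was lowest in 41.8% of all genes. It was thus outermost for 9 of 9 members, where it was outermost for 83.7% of all genes. The log2 ratio of untreated library A over B was 2.02 for Phlda3, above 96.6% of all genes. It was 1.48 for Sesn2, 1.24 for Cdkn1a, 1.07 for Bbc3 and 1.01 for Bax. It was -1.79 for Ccng1, below all but 3.0% of genes, -1.64 for Eda2r, -1.23 for Mdm2 and -0.68 for Btg2. The rank of Ccng1 is within a range cut on its lower side. No listed gene had a ratio under the bin centred on -1.875, which held 4.12% of genes, while the upper side reached the bin centred on 4.125. Targets of the same factor were thus both higher and lower in untreated library A than in B. Over all genes, untreated library A was highest and lowest in near equal shares. Cdkn1a and Btg2 in the arrest arm stood on different sides, as did Phlda3 and Eda2r in the apoptosis arm. The cause was not tested.

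**Figure D2:**
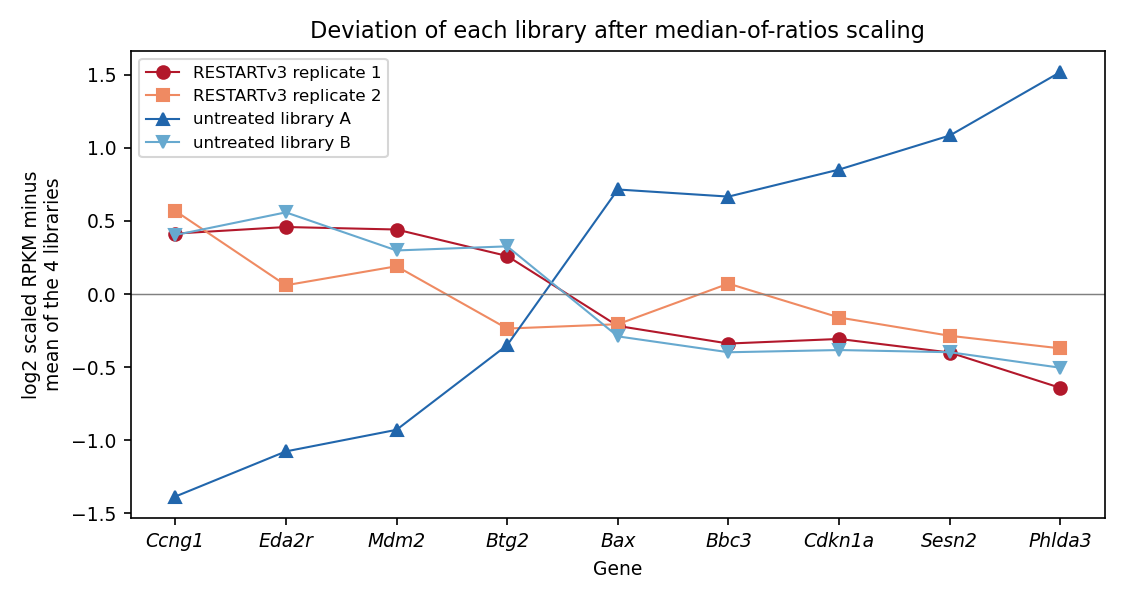
Deviation of each library from the mean of the 4 libraries (log2 scaled RPKM) for the 9 p53 target genes, ordered by the ratio of untreated library A over B. Both RESTARTv3 libraries lay nearer to untreated library B than to A for all of these genes but Btg2, where RESTARTv3 replicate 2 lay nearer to A, and untreated library A lay lowest for Ccng1, Eda2r, Mdm2 and Btg2 and highest for Bax, Bbc3, Cdkn1a, Sesn2 and Phlda3.

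The other 3 libraries were close to each other. The log2 ratio of RESTARTv3 replicate 1 over untreated library B lay between -0.14 and 0.14 for all 9 members, with a median size of 0.071, against 0.200 over all genes. For RESTARTv3 replicate 2 over untreated library B the median size was 0.17, against 0.21 over all genes, and the widest members were Btg2 at -0.56 and Eda2r at -0.50. Between RESTARTv3 replicates 1 and 2 it was 0.25, against 0.22 over all genes. By contrast the members differed from untreated library A by a median size of 1.37 for RESTARTv3 replicate 1, against 0.95 over all genes, and of 1.12 for RESTARTv3 replicate 2, against 0.93 over all genes. Between untreated libraries A and B it was 1.24, against 0.90 over all genes. By this median each RESTARTv3 library lay closer to untreated library B than to the other RESTARTv3 library, which describes these 4 libraries and was given no test.

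**Figure D3:**
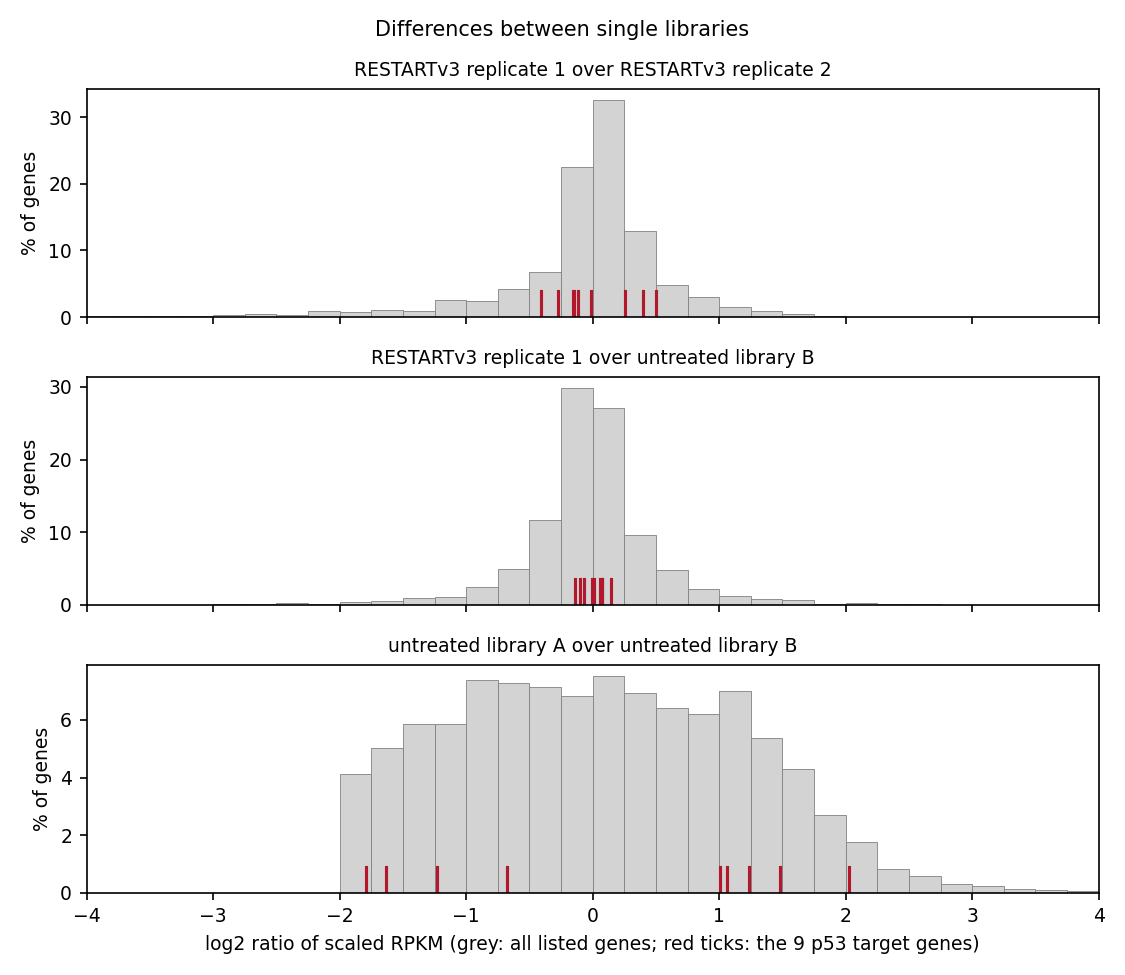
Distribution over all listed genes (grey, percent of genes per bin) of the log2 ratio of scaled RPKM between single libraries, with the 9 p53 target genes as red ticks. For RESTARTv3 replicate 1 over untreated library B the ticks lie between -0.14 and 0.14, and for untreated library A over B they spread between -1.79 and 2.02.

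Ratios of 2 genes within a library do not depend on the scaling. Ccng1 over Cdkn1a was 3.22 and 3.24 in RESTARTv3 replicates 1 and 2, against 0.414 and 3.37 in untreated libraries A and B. Phlda3 over Ccng1 was 0.292 and 0.316 in RESTARTv3 replicates 1 and 2, against 4.54 and 0.323 in untreated libraries A and B. Both ratios were near equal in 3 libraries and turned over in untreated library A. They join genes already seen on opposite sides in that library, so they restate those values and add no separate evidence. Bax over Bbc3, a pair within the apoptosis arm, was 6.75 and 5.12 in RESTARTv3 replicates 1 and 2, against 6.42 and 6.69 in untreated libraries A and B. That ratio was kept in untreated library A, where both genes were high. Phlda3 had the highest RPKM of the 9 members in untreated library A, whereas Btg2 or Ccng1 led in each of the other 3 libraries, and Bbc3, Sesn2 and Eda2r were the lowest members in all 4.

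The fitted changes followed the untreated library they were set against. Without untreated library A, which leaves B alone and takes its spread from the RESTARTv3 pair, the 9 log2 changes on recovered reads lay between -0.26 (Btg2) and 0.23 (Bbc3), with standard errors of 0.14 to 0.29 and adjusted p near 1.0, and the 95% intervals ran from -1.04 at the lowest to 1.07 at the highest. Ccng1 had a change of 0.12, Phlda3 of -0.014 and Cdkn1a of 0.17. Limma voom called 0 of 9 members there, beside 0 of 18704 genes, with 0 members and 560 genes (2.99%) at an unadjusted p under 0.05. Without untreated library B the same test called 6 of 9 members, beside 47.3% of all genes. Ccng1 at 1.87 (adjusted p = 0.0101) and Mdm2 at 1.25 (adjusted p = 0.0145) were called higher in RESTARTv3, where 21.2% of all genes were. Phlda3 at -2.06, Sesn2 at -1.45, Cdkn1a at -1.09 and Bax at -0.93 were called lower, where 26.2% of all genes were. Eda2r at 1.35 (adjusted p = 0.0704), Bbc3 at -0.86 (adjusted p = 0.0706) and Btg2 at 0.37 (adjusted p = 0.302) were not called.

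**Figure D4:**
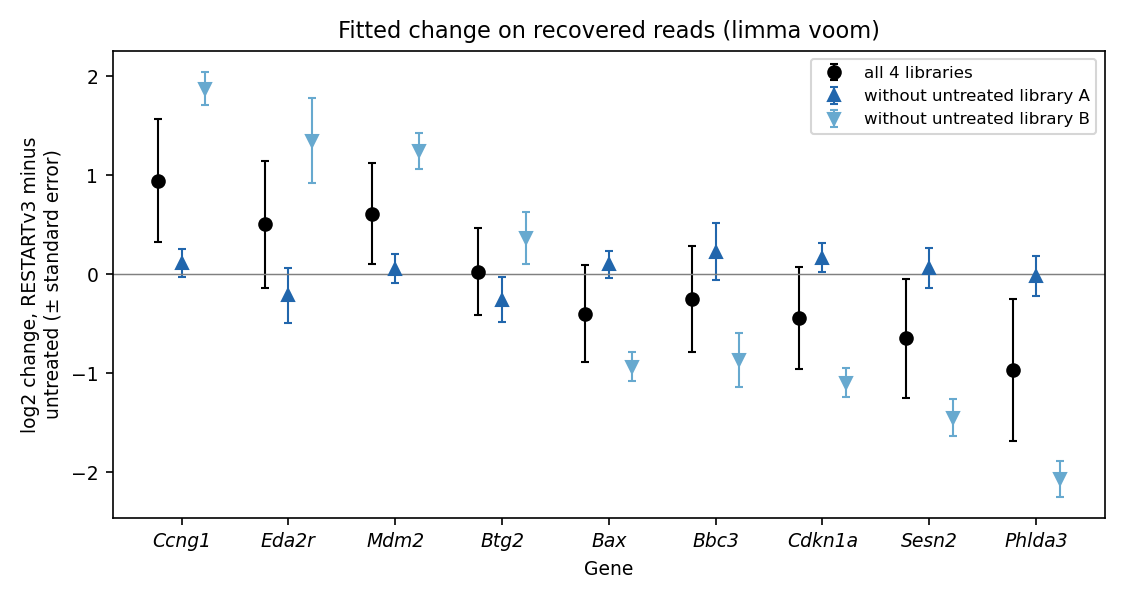
Fitted log2 change (RESTARTv3 minus untreated, limma voom on recovered reads, bars ± standard error) of the 9 p53 target genes with all 4 libraries, without untreated library A and without untreated library B. With all 4 libraries the changes lay between -0.97 (Phlda3) and 0.95 (Ccng1), without A between -0.26 and 0.23, and without B between -2.06 and 1.87.

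The sums of several marker lists moved with untreated library A. On the scaled values the 6 bone markers summed to 149.6 and 189.95 in RESTARTv3 replicates 1 and 2, against 832 and 181 in untreated libraries A and B. The 11 listed proliferation genes of 15 summed to 27.1 and 21.8 in the RESTARTv3 libraries, against 11.2 and 24.1 in the untreated ones, and were lowest in untreated library A in 11 of 11 cases. The 14 immediate early genes summed to 41.2 and 38.7 in the RESTARTv3 libraries, against 86.5 and 41.0 in untreated libraries A and B. The 5 listed skeletal muscle markers of 6 summed to 0.528 and 0.228 in the RESTARTv3 libraries, against 1.93 and 0.341 in untreated libraries A and B, and were highest in A in 5 of 5 cases. The 8 macrophage markers summed to 34.5 and 34.3 in the RESTARTv3 libraries, against 60.4 and 23.6 in untreated libraries A and B. Hair cell markers, 7 of 8 listed without Atoh1, summed to 5.27 and 4.199 in the RESTARTv3 libraries, against 9.61 and 6.28 in untreated libraries A and B. By gene, untreated library A was highest in 4 of 6 bone markers and 11 of 14 immediate early genes, and lowest in 1 of each. It was highest in 5 of 8 macrophage and 4 of 7 hair cell markers, and lowest in 2 and 1. Over all genes it was highest in 41.9% and lowest in 41.8%. Not every list set untreated library A apart from B. The 8 T and natural killer markers summed to 5.31 and 4.87 in the RESTARTv3 libraries, against 2.83 and 3.12 in untreated libraries A and B. Untreated library A was highest in 0 and lowest in 4 of these 8. The part of any of these lists in the members' values was not tested.

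The regulators of p53 were read next. Trp53, the gene of p53 itself, had 1103 and 402 reads in RESTARTv3 replicates 1 and 2, against 660 and 803 in the untreated ones, A and B. The groups overlapped, and the log2 change on recovered reads was -0.28 (SE 0.44, limma voom adjusted p = 0.812). Its values come out as whole reads for a span of 53270 bases, where the GRCm38.p6 annotation gives 11526, so its RPKM is not set beside those of other genes. As background, p53 is regulated mainly as a protein rather than through its RNA. Mdm4, the partner of Mdm2 in restraining p53, had 1.61 and 0.678 RPKM in RESTARTv3 replicates 1 and 2, against 0.267 and 1.32 RPKM in the untreated libraries A and B. Untreated library A was again apart, and the log2 change was 1.07 (SE 0.63, limma voom adjusted p = 0.766) with all libraries and 0.23 without A. Mdm4 overlaps the gene models Gm29257 and Gm41953 in the GRCm38.p6 annotation. Of the 12 listed regulators 3 were tested on RPKM, the deubiquitinase gene Usp7, the ubiquitin ligase gene Rchy1 and the acetyltransferase gene Ep300. None passed, with log2 changes of -0.087, 0.16 and -0.29. All 3 lay above the median of all genes tested, which was -0.41, and their own median stood 0.33 above it. Cdkn2a was not analysed here.

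A wider list of 30 p53 targets was listed whole, of which 9 were tested on RPKM and 30 on recovered reads, and 0 passed either test, with 0 of 9 and 1 of 30 at an unadjusted p under 0.05. On recovered reads 17 of 30 lay above the median of all genes, and their median stood 0.067 above it, against 14 of 30 and a relative median of -0.013 without untreated library A. Gadd45a, a growth arrest gene, had 6.12 and 2.72 RPKM in RESTARTv3 replicates 1 and 2, against 2.38 and 6.03 RPKM in the untreated libraries A and B, the pattern of Ccng1 and Btg2. The small GTPase gene Rap2b shared that pattern, with 5.92 and 2.65 RPKM in RESTARTv3 replicates 1 and 2, against 2.84 and 5.56 RPKM in the untreated libraries A and B. Ddit4, an inhibitor of mTORC1, had 2.65 and 1.29 RPKM in RESTARTv3 replicates 1 and 2, against 4.62 and 3.90 RPKM in the untreated libraries A and B. Both RESTARTv3 libraries were below both untreated ones, and its log2 change on recovered reads was -0.89 (limma voom adjusted p = 0.766). The carbonyl reductase gene Dcxr had 0.965 and 0.479 RPKM in RESTARTv3 replicates 1 and 2, against 3.94 and 1.11 RPKM in the untreated libraries A and B, and shared the pattern of Phlda3. The adenylate kinase gene Ak1 also lay below, with 1.25 and 0.745 RPKM in RESTARTv3 replicates 1 and 2, against 2.54 and 1.70 RPKM in the untreated libraries A and B. Ddit4, Dcxr and Ak1 were the genes with the smallest p of the list in the test on RPKM. On this scale 25.2% of all genes lay below in the same way, and 34.9% of those averaging 1 RPKM or more.

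Genes of DNA damage sensing and repair were mostly low on the gene-span scale, and 4 of the 20 listed genes were tested on RPKM. Mdc1, a scaffold at DNA breaks, and Msh6, a mismatch repair protein, had log2 changes of -0.27 and -0.047. Parp1, which senses strand breaks, and Rnf168, a ligase acting on histones at breaks, had changes of -0.21 and 0.18. None passed the test, and all 4 lay above the median of all genes tested, which was -0.41. Their own median stood 0.28 above it. On recovered reads 0 of 20 were called and 0 had an unadjusted p under 0.05, while 15 of 20 lay above the median of all genes and their median stood 0.60 above it. Without untreated library A these were 12 of 20 and 0.037. In the same genes untreated library A was the lowest of the 4 after scaling in 15 of 20 cases, where it was lowest in 41.8% of all genes. Atm, Atr, Chek1, H2ax, Brca1 and Xrcc4 were not analysed here.

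Btg2 and Sesn2 also belong to programmes other than that of p53. The 14 immediate early genes, which include Btg2, had 0 calls on recovered reads and 2 genes at an unadjusted p under 0.05, with 3 of 14 above the median of all genes and a median relative to it of -0.54, but 7 of 14 and 0.020 without untreated library A. Egr1, a zinc finger factor induced by stimulation and by tissue handling, had 8.47 and 5.15 RPKM in RESTARTv3 replicates 1 and 2, against 18.1 and 9.07 RPKM in the untreated libraries A and B. Btg2 did not share the order of Egr1, since it was higher in untreated library B than in A. The AP-1 gene Jun had 8.57 and 3.41 RPKM in RESTARTv3 replicates 1 and 2, against 14.6 and 9.58 RPKM in the untreated libraries A and B, with a log2 change of -1.05 (limma adjusted p = 0.998). Ier2 and Dusp1 had changes of -0.84 and -0.76 at the same adjusted p. The 12 genes of the integrated stress response, which include Sesn2, had 0 calls and 0 genes at an unadjusted p under 0.05, with 5 of 12 above the median and a median relative to it of -0.33, but 7 of 12 and 0.039 without untreated library A. Their factor Atf4 had 26.3 and 10.7 RPKM in RESTARTv3 replicates 1 and 2, against 19.2 and 30.03 RPKM in the untreated libraries A and B. Ppp1r15a and Cebpb had log2 changes of -0.80 and -0.70 (limma adjusted p = 0.998).

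The 13 other genes of the Bcl2 family, the partners of Bax and Bbc3, had 0 calls on recovered reads and 0 genes at an unadjusted p under 0.05, with 6 of 13 above the median of all genes and a median relative to it of -0.048, against 9 of 13 and 0.074 without untreated library A. The survival gene Mcl1 had 6.31 and 2.52 RPKM in RESTARTv3 replicates 1 and 2, against 2.98 and 5.66 RPKM in the untreated libraries A and B. Bcl2l2, another survival gene, had 6.05 and 2.97 RPKM in RESTARTv3 replicates 1 and 2, against 5.38 and 6.23 RPKM in the untreated libraries A and B. Bcl2l1, which codes for Bcl-xL, and the BH3-only gene Bad had log2 changes of -0.54 and -0.80 (limma adjusted p = 0.998). The 11 listed proliferation genes, on which Cdkn1a acts as a brake in cycling cells, lay above the median of all genes in 11 of 11 cases with a median of 0.53 relative to it, 0 calls and 0 genes at an unadjusted p under 0.05. Without untreated library A these were 7 of 11 and 0.048. Pcna, the replication clamp that p21 binds, had 8.81 and 3.66 RPKM in RESTARTv3 replicates 1 and 2, against 1.86 and 8.29 RPKM in the untreated libraries A and B, so the groups overlapped. The ribonucleotide reductase gene Rrm2, the cyclin gene Ccna2 and Birc5 had log2 changes of 0.22, 0.44 and 0.27 (limma adjusted p = 0.998). Without untreated library B limma voom called 14 further p53 targets, 14 repair genes, 5 regulators, 7 stress response genes, 10 immediate early genes, 7 Bcl2 family genes and 6 proliferation genes, where 47.3% of all genes were called.

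**Figure D5:**
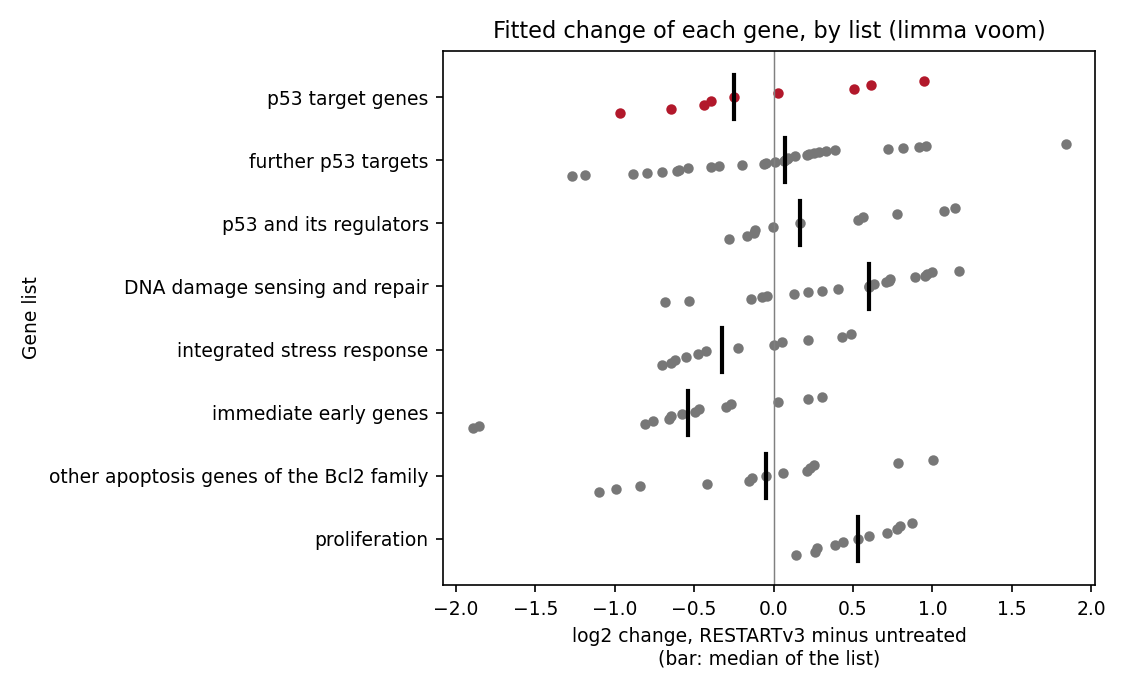
Fitted log2 change on recovered reads (RESTARTv3 minus untreated, limma voom, all 4 libraries) of each gene in the p53 target list (red) and in 7 other lists (grey), with the median of each list as a bar. The p53 target genes lie on both sides of 0, between -0.97 and 0.95, while all 11 proliferation genes lie above 0 and 11 of the 14 immediate early genes lie below it, although without untreated library A the medians of these 2 lists relative to all genes were 0.048 and 0.020.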

How the data were processed

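RNA was measured in 4 mouse cochlear libraries, grouped by their labels. Per the study's methods, ribosomal RNA was removed from total RNA before fragmentation, and a stranded low-input kit was used, whereas the labels name polyA RNA. The table deposited by the authors holds RPKM. According to the methods and to processing notes of the submitters, it was made from read 2 alone with cutadapt 4.2, removal of duplicates and UMI-tools 1.0.0, then STAR 2.7.10b on GRCm39, SAMtools 1.14 and gene counts from HTSeq 1.14. Genes whose replicates disagreed were removed, at a stated limit of 2-fold, although the read ratios within each group reach 3.0 on the log2 scale. No gene is listed at 0, so a gene without a read in some library is not analysed here.

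Given the library totals, the deposited RPKM came out as whole reads within 0.001 at the annotated span for 11590 genes. For the rest a length that made the values whole was searched for, so whole reads in 100.0% of genes are no check. Its multiple nearest to the annotated span was taken for 8782 genes. The smallest such length was taken for 858 genes without a match, whose reads may be off by a whole factor. Spans, names and overlaps come from the GRCm38.p6 annotation, in which 20372 of 21230 genes were matched.

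RESTARTv3 minus untreated was tested 2-sided on log2(RPKM + 0.5) with limma 3.58.1 (R 4.3.3, mean-variance trend) in genes averaging 1 RPKM or more, adjusted by Benjamini-Hochberg over all genes tested. Fold changes on this scale understate those of low genes. The scripts were tested on simulated data in which no library was set apart from its group, unlike untreated library A here. An exact permutation of 2 against 2 libraries cannot go below p = 0.333. Alternatives were other pseudocounts (0.1 and 1), other filters, median-of-ratios and quantile scaling, a prior without trend, limma voom on recovered reads in genes averaging 10 reads or more, and leaving out each library. The members and lists were chosen with earlier results of these data known. The genes named were the 10 members, Trp53 and Mdm4, and from each other list up to 3 with the highest mean RPKM and up to 3 with the smallest p.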

Additional observations from a re-analysis of the deposited data

How the results depend on the processing

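With 22 alternative fits, 0 members were called in every fit that kept both untreated libraries. Over all genes the count past the threshold was 12 with no filter on low values and 2 with replicates held within 2-fold, against 0. The members' median relative to all genes was -0.21 with no filter and -0.25 by limma voom, against 0.024. Members with both RESTARTv3 libraries above both untreated libraries numbered 0 on the deposited scale (2.24% of all genes). They numbered 1 after median-of-ratios scaling (16.2%) and 1 on scaled recovered reads (17.2%). Members below numbered 2 on the deposited scale (25.2% of all genes). They numbered 0 after median-of-ratios scaling (21.5%), 0 after quantile normalization (20.5%) and 0 on scaled recovered reads (20.9%). They numbered 1 at a minimum mean RPKM of 1 (34.9%) and 1 with replicates within 2-fold (49.6%). The change of Btg2 turned to 0.020 after median-of-ratios scaling with or without a filter, 0.29 after quantile normalization and 0.029 by limma voom. The cause of these differences was not tested.

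When each library was left out, the members called ranged from 0 to 6 and all genes called from 0 to 8707. The 6 came without untreated library B, by limma voom and by limma on scaled values without a filter, where 7788 genes (36.7%) were called. The members' relative median ranged from -0.84 to 0.30. Calls ranged from 0 to 14 for further p53 targets, 0 to 5 for p53 and its regulators, 0 to 14 for DNA damage sensing and repair, 0 to 7 for the integrated stress response, 0 to 10 for immediate early genes, 0 to 7 for the Bcl2 family and 0 to 6 for proliferation. Members above ranged from 0 to 5, where 3.64% to 43.8% of all genes were above. Members below ranged from 0 to 6, where 27.9% to 62.6% of all genes were below. The log2 changes ranged from -0.42 to 1.87 for Ccng1, -1.09 to 0.17 for Cdkn1a, -0.36 to 1.25 for Mdm2, -0.93 to 0.10 for Bax, -0.86 to 0.23 for Bbc3, -2.06 to 0.023 for Phlda3, -0.21 to 1.35 for Eda2r, -1.45 to 0.065 for Sesn2 and -0.93 to 0.46 for Btg2. A library left alone in its group was assumed to vary like the other group.

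No paired analysis was possible because both untreated columns carry the same name, so no replicate number ties them to the RESTARTv3 libraries. Depth limited Eda2r, with 16 reads in untreated library A.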

Other observations

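Of the further p53 targets, Pmaip1 alone had an unadjusted p under 0.05 in the fit on recovered reads, and it is named here after its values were seen. Pmaip1, or Noxa, is a BH3-only protein that neutralises Mcl1. It had 0.396 and 0.236 RPKM in RESTARTv3 replicates 1 and 2, against 0.0471 and 0.218 RPKM in the untreated libraries A and B. On this deposited scale its lower RESTARTv3 value was just over its higher untreated one, where 2.24% of all genes had both RESTARTv3 libraries above. Its reads were 196 and 100 in the RESTARTv3 libraries, against 13 and 86 in the untreated ones. The log2 change was 1.84 (SE 0.64, limma voom adjusted p = 0.766), and it was 1.01 without untreated library A and 2.64 without untreated library B. It failed the correction over all 18499 genes, in which 398 had an unadjusted p under 0.05, and its relation to the vector was not tested.

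Fosb and Nr4a1, immediate early genes for an AP-1 subunit and an orphan nuclear receptor, were the genes of the lists with an unadjusted p under 0.05 in the other direction, and were likewise named after their values were seen. Fosb had 0.0784 and 0.0267 RPKM in RESTARTv3 replicates 1 and 2, against 0.189 and 0.230 RPKM in the untreated libraries A and B. Its log2 change on recovered reads was -1.85 (limma voom adjusted p = 0.766), -1.67 without untreated library A and -1.93 without untreated library B. Nr4a1 had 0.322 and 0.119 RPKM in RESTARTv3 replicates 1 and 2, against 1.36 and 0.632 RPKM in the untreated libraries A and B. Its log2 change was -1.89 (limma voom adjusted p = 0.766), -1.06 without untreated library A and -2.70 without untreated library B.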
